A study of Mus musculus with 3 samples.

Results

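Basal-like epithelial cells were 2584 of 14573 mouse cells (17.7%) profiled by droplet single cell RNA-seq. A cell was a member when it had a value above 0 for at least 3 of *Lgals7*, *Sfn*, *Serpinb5*, *Lamb3* and *Dst*. The mean of these 5 genes also had to exceed the mean of the luminal genes *Cldn3*, *Tspan1*, *Wfdc3*, *Cyp2f2* and *Cxcl17*, and the sum of *Cdh1* and *Cldn4* had to exceed that of *Col1a2* and *Col3a1*. These measured values chose the cells, so the levels of those 14 genes are description only.

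A single library was made from each tissue: the E18.5 urogenital sinus (UGS) of males, where prostate buds first form, the P14 prostate and the P35 prostate, all labelled normal. The mice of the study were of mixed C57BL/6 and 129S1/SvImJ background, and the genotype and pooling of the animals behind each library are not given in the sources used here. Cell barcodes end in 1, 2 or 3, and since the labels hold no key from ending to tissue, cells are described by barcode set and no comparison between ages was made. The cell number of set 1 equals the one the study states for the E18.5 UGS after its filtering, and those of the other sets differ from the ones it states for the prostates, and no tissue was assigned from this. Every 95% interval covers counting error only, as there were no replicates and therefore no p-values.

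Basal cells of the prostate lie on the basement membrane beneath the secretory luminal cells. They anchor to it through integrins and laminins in hemidesmosomes, hold to each other through desmosomes, and include cells able to give rise to other prostate lineages. Keratins 5 and 14 and the factor p63 are their usual markers, but the genes for these have no row used here, so the label rests on the 5 genes of the rule. *Sfn* encodes the epithelial 14-3-3 sigma protein, *Lgals7* a galectin of stratified epithelia, *Serpinb5* maspin, *Lamb3* a chain of laminin 332, and *Dst* dystonin, whose epithelial form is a hemidesmosome protein.

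Barcode set 1 held 109 basal-like cells of 766 (14.2%, exact Clopper-Pearson interval 11.8 to 16.9). Set 2 held 842 of 5350 (15.7%, 14.8 to 16.7). Set 3 held 1633 of 8457 (19.3%), with a lower limit above 18 and an upper limit of 20.2. Of the cells that met the epithelial condition alone, members made up 70.8% (62.9 to 77.8), 62.5% (59.9 to 65.1) and 63.3% (61.4 to 65.2). Luminal-like cells, picked by the mirrored rule, numbered 6, 76 and 379, and collagen-type cells, in which the collagen sum exceeded the epithelial sum, numbered 535, 3619 and 4550. Any comparison with luminal-like cells in set 1 therefore rested on 6 cells. The shares move with the rule: with at least 4 markers they were 9.01%, 9.12% and 13.0%. With cells thinned to 1500 UMIs they were 1.09%, 9.95% and 17.6%. These last are shares of the cells with at least 1500 UMIs, since shallower cells were left out, and not of all cells.

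Depth differed strongly between the sets. Members had medians of 48873, 4849 and 3818 unique molecular identifiers (UMIs, tags that count captured mRNA molecules) over all genes in sets 1, 2 and 3, with 5719886, 5473541 and 9754174 UMIs in total. Luminal-like cells had medians of 90771, 9116.5 and 9133, and collagen-type cells of 17242, 1492 and 1503.5. The rows used here ran over part of the genome and held 51.4%, 49.9% and 49.6% of the members' UMIs. Sets 1 and 2 shared 1 barcode, sets 2 and 3 shared 13 and sets 1 and 3 none, and 4 members carried one of these. Levels are given as CPM, a gene's UMIs added over the cells of a class and scaled to 1000000 UMIs in that class, which describe a class of cells and cannot tell fewer expressing cells from less RNA per cell.

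Members varied in how fully they met the rule. In set 1, 40 members had 3 of the 5 markers, 46 had 4 and 23 had all 5. The same counts were 354, 332 and 156 in set 2 and 537, 846 and 250 in set 3. At least 2 luminal genes of the rule were detected in 52 members of set 1 (47.7%), 175 of set 2 (20.8%) and 298 of set 3 (18.2%). No luminal gene of the rule was detected in 26 members of set 1 (23.9%), 542 of set 2 (64.4%) and 1061 of set 3 (65.0%). Cells of sets 2 and 3 were much shallower than those of set 1. The smallest margin of basal over luminal mean inside the rule was 0.0372, 1.28e-04 and 0.00386 on the deposited natural log scale, and the nearest values outside it were -0.0293, -0.0215 and -0.00112. Another 20, 232 and 247 cells met both other conditions with exactly 2 markers, 7, 43 and 170 fell outside by the luminal mean alone, and 12, 203 and 367 by the epithelial condition alone. No doublets were removed here. The study's methods include a step that filters multiplets, but whether the deposited table had passed it is not stated in the sources used here.

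**Figure D1:**
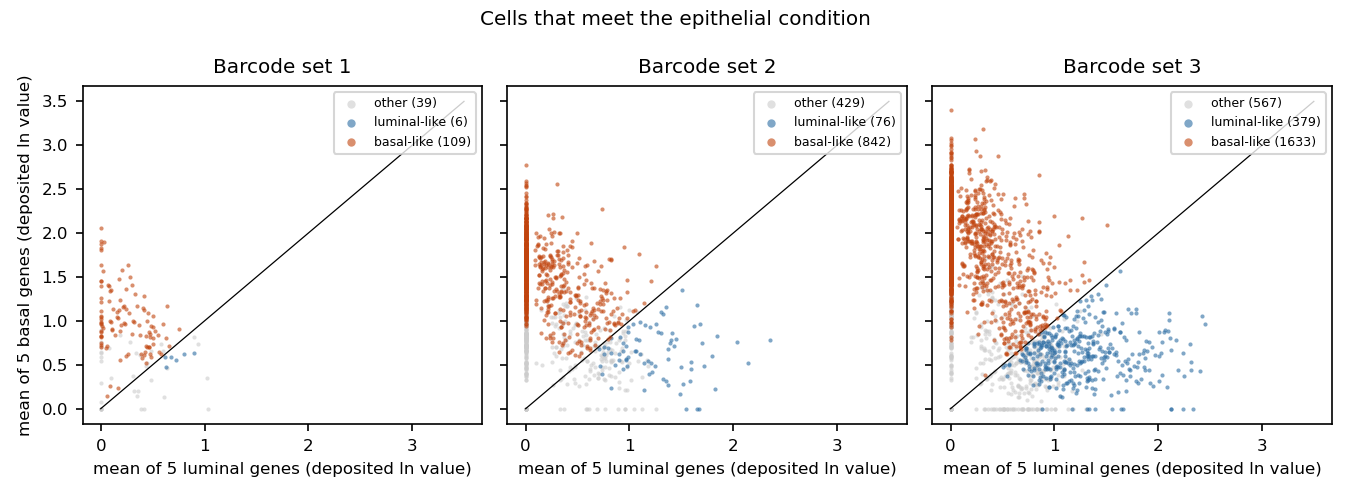
Mean deposited value (natural log scale) of the 5 luminal genes of the rule on the horizontal axis and of the 5 basal genes on the vertical axis, with 1 point per cell that met the epithelial condition, in each barcode set. The line marks equal means, and the 109, 842 and 1633 basal-like cells lie above it, many of them at a luminal mean of 0 in sets 2 and 3.

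*Sfn* carried most of the UMIs of the 5 markers, with 85.0%, 75.7% and 65.7% of them in sets 1, 2 and 3. It lies at chr4:133600556-133602168 (GRCm38, the assembly of mm10) and stood at 2214 CPM (2176 to 2253), 3188 (3141 to 3236) and 4028 (3988 to 4068) in members. *Lgals7* (chr7:28863796-28866285) stood at 162, 253 and 967 CPM and was detected in 55.0%, 71.1% and 92.8% of members. *Lamb3* (chr1:193294353-193343878) was detected in 57.8%, 37.1% and 21.1% of members, the lowest shares of the 5 markers in sets 2 and 3. Members were chosen on these genes at full depth, so neither their shares nor their rates are compared between sets. *Dst* (chr1:33907888-34308662) stood at 107, 386 and 745 CPM and *Serpinb5* (chr1:106861175-106883348) at 90.7, 302 and 351 CPM.

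To describe what basal-like cells carry beyond the rule, their rates were set against those of luminal-like cells of the same set, over genes with at least 30 UMIs in both classes together and outside the 14 genes. A gene counts as higher or lower at 2-fold or more with 5 CPM added to both rates. In set 1, 568 of 5378 genes (10.6%) were higher and 141 (2.62%) lower, and with at least 2 markers 212 were higher and 109 lower. In set 2, 421 of 5022 (8.38%) were higher and 197 (3.92%) lower, and in set 3, 254 of 5964 (4.26%) were higher and 164 (2.75%) lower. In set 3 the balance depends on the measure, since with a mean of per-cell rates 294 genes were higher and 355 lower. The median log2 ratio over all genes was 0.17, 0.09 and -0.00. Ratios quoted below for single genes are log2 of the plain CPM ratio with an exact interval, in sets 2 and 3 unless set 1 is named. Against all other cells that met the epithelial condition, 100, 21 and 166 genes were higher and 117, 76 and 122 lower, so that lower genes outnumbered higher ones in sets 1 and 2. The size of a difference from luminal-like cells thus also reflects which cells stand on the other side.

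Several adhesion and basement membrane genes were at least 2-fold higher in basal-like than in luminal-like cells, though fewer than those between the limits. Of 17 list genes with a row, 15 could be compared in set 2 and 16 in set 3, and 7 and 6 of them were at least 2-fold higher, against 8.38% and 4.26% of all genes, with none at least 2-fold lower and list medians of 1.00 and 0.81. *Itga6*, the integrin alpha 6 subunit of the hemidesmosome (chr2:71786886-71858427), stood at 68.7 CPM (62.1 to 75.8), 392 (376 to 409) and 408 (396 to 421) in basal-like cells and at 41.0, 199 and 229 in luminal-like cells. The *Itga6* ratio, on the log2 scale, was 0.98 (0.73 to 1.24) and 0.83 (0.73 to 0.93), just under 2-fold. *Col4a1* and *Col4a2*, which encode the type IV collagen chains of the basement membrane, showed wider gaps. *Col4a1* stood at 326 and 188 CPM against 69.7 and 9.0 in luminal-like cells, with log2 ratios of 2.22 (1.81 to 2.67) and 4.38 (3.93 to 4.88). *Col4a2* stood at 151 and 69.4 CPM against 23.2 and 2.54, with ratios of 2.70 (1.99 to 3.51) and 4.77 (3.92 to 5.78).

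Other basement membrane genes showed the same side. *Col18a1*, the source of endostatin (chr10:77052178-77166530), was at 138 and 108 CPM in basal-like cells and 17.4 and 4.62 in luminal-like cells. *Hspg2*, which encodes perlecan, was at 61.0 and 29.8 CPM against 8.72 and 3.0. *Bcam*, a laminin receptor of the immunoglobulin superfamily (chr7:19756138-19770532), was at 165, 77.6 and 53.8 CPM over the 3 sets against 32.4, 26.2 and 10.8. *Lamc1*, a laminin gamma chain, had ratios of 1.02 (0.58 to 1.49) and 0.95 (0.71 to 1.21). Not every member of the group stood higher. *Cd44*, a hyaluronan receptor, was slightly lower in basal-like cells, at 320.5 against 373 CPM and 313 against 363. In set 1 *Col18a1* was at 63.1 CPM against 6.47, but its ratio there turned to the other side against all other epithelial-condition cells.

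Collagen-type cells also make basement membrane collagens, and their level stands beside these results. The basal-like rate of *Col4a1* was 4.42%, 39.9% and 44.8% of the collagen-type rate in sets 1, 2 and 3, and that of *Hspg2* 21.3%, 39.9% and 25.2%. For *Itga6* it was 279%, 485% and 821%, and for *Bcam* 1205%, 361% and 418%, so these receptors were highest in the basal-like cells.

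Desmosome genes with a row were *Perp*, *Pkp1* and *Pkp3*. Of these, 2 of the 3 were at least 2-fold higher in sets 2 and 3, beside 8.38% and 4.26% of all genes, and none of the 3 in set 1, beside 10.6%. *Perp*, a desmosome membrane protein and p63 target gene (chr10:18845071-18857073), stood at 799 CPM (776 to 823), 660.3 (639 to 682) and 701 (685 to 718) in basal-like cells against 412, 289 and 177 in luminal-like cells. *Pkp1*, the plakophilin of stratified epithelia (chr1:135871394-135919207), stood at 39.7, 142 and 66.2 CPM against 30.2, 56.7 and 13.8, with ratios of 1.32 (0.86 to 1.83) and 2.26 (1.87 to 2.66). Both were lowest in collagen-type cells, *Perp* at 27.6, 133 and 77.6 CPM and *Pkp1* at 0.819, 20.6 and 5.42.

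**Figure D2:**
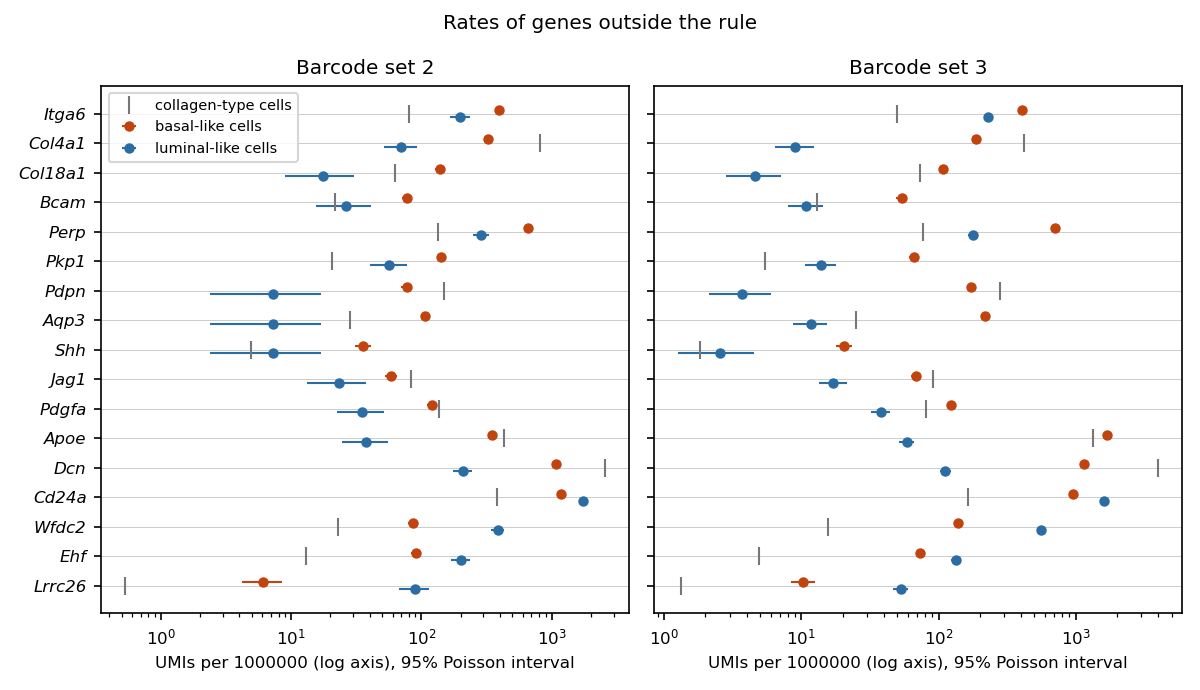
Rate in UMIs per 1000000 (log axis) of named genes in basal-like, luminal-like and collagen-type cells of barcode sets 2 and 3, where bars are exact 95% Poisson intervals and ticks mark collagen-type cells without an interval. *Itga6*, *Col4a1*, *Perp*, *Pkp1* and *Shh* lie higher in basal-like than in luminal-like cells in both panels, and *Wfdc2*, *Ehf* and *Lrrc26* lie lower.

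Genes ranked by the ratio nearest to 0 among the 3 sets gave *Col18a1*, *Pdpn*, *Fscn1*, *Palld*, *Cald1*, *Dcn*, *Hspg2*, *Dmkn*, *Arhgdib* and *Gja1* as the 10 highest in basal-like cells. *Pdpn*, the membrane glycoprotein podoplanin (chr4:143267409-143299564), was at 27.3, 77.3 and 172 CPM against 2.16, 7.26 and 3.69. *Gja1*, which encodes connexin 43, was at 28.0, 81.5 and 103 CPM against 4.32, 16 and 5.08. *Fscn1*, an actin-bundling protein, was at 115, 101 and 30.6 CPM against 19.4, 5.81 and 3.23. The luminal-like values of set 1 in these sentences are 1 to 9 UMIs, and the order of the ranking depends on them. *Arhgdib* as well as *Col18a1* was lower than in all other epithelial-condition cells of set 1.

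Luminal and secretory genes had medians on the other side. Of 8 with a row, 6 could be compared in set 2 and 7 in set 3, and 3 and 4 were at least 2-fold lower in basal-like cells, beside 3.92% and 2.75% of all genes, with list medians of -1.02 and -1.31. *Wfdc2*, a secreted whey acidic protein family member (chr2:164562715-164568510), stood at 761, 86.2 and 138 CPM against 1375, 385 and 557. *Cd24a*, a surface glycoprotein used to sort luminal cells, stood at 1172 and 948 CPM against 1755 and 1595, with log2 ratios of -0.58 and -0.75, and was detected in 92.9% and 83.6% of basal-like cells. In set 1 *Cd24a* lay on the opposite side, at 682 CPM against 464 (0.56, 0.36 to 0.76). *Car2*, carbonic anhydrase 2, stood at 41.5 and 46.4 CPM against 183 and 122. *Lrrc26*, an auxiliary subunit of potassium channels in secretory epithelia, was the first of the genes lower in all 3 sets, at 38.8, 6.03 and 10.3 CPM against 162, 88.6 and 53.1. The others of that 10 were *Slc39a8*, *Acss1*, *Cdc14a*, *Pygb*, *Capn5*, *Hopx*, *Car2*, *Gipc2* and *Sel1l3*.

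Most epithelial transcription factors stood less than 2-fold apart between the classes. In set 2, 2 of 15 were higher and 2 lower in basal-like cells, beside 8.38% and 3.92% of all genes. In set 3, 1 of 18 was higher and none lower, beside 4.26% and 2.75%, and the list medians were -0.15 and -0.10. *Lmo4*, a LIM-only cofactor, was at 142 CPM in both classes of set 2. *Ehf* and *Elf3*, factors of the ETS family in simple and glandular epithelia, had lower rates in basal-like cells: *Ehf* at 91.3 and 73.3 CPM against 202 and 134, and *Elf3* at 23.9 and 28.6 against 34.9 and 55.8, where the set 2 interval of *Elf3* included 0 (-1.18 to 0.15).

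Among stem and progenitor genes, none of 8 in set 2 reached 2-fold, beside 8.38% of all genes higher and 3.92% lower, and 1 of 10 in set 3 was higher and 1 lower, beside 4.26% and 2.75% of all genes. *Procr*, the endothelial protein C receptor, was the higher gene, at 45.3 CPM (41.2 to 49.7) against 1.38 (0.508 to 3.01), yet it stood at 74.3 CPM in collagen-type cells. *Aldh1a3*, a retinoic acid-forming enzyme, was at 113 and 52.1 CPM against 144 and 105.

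**Figure D3:**
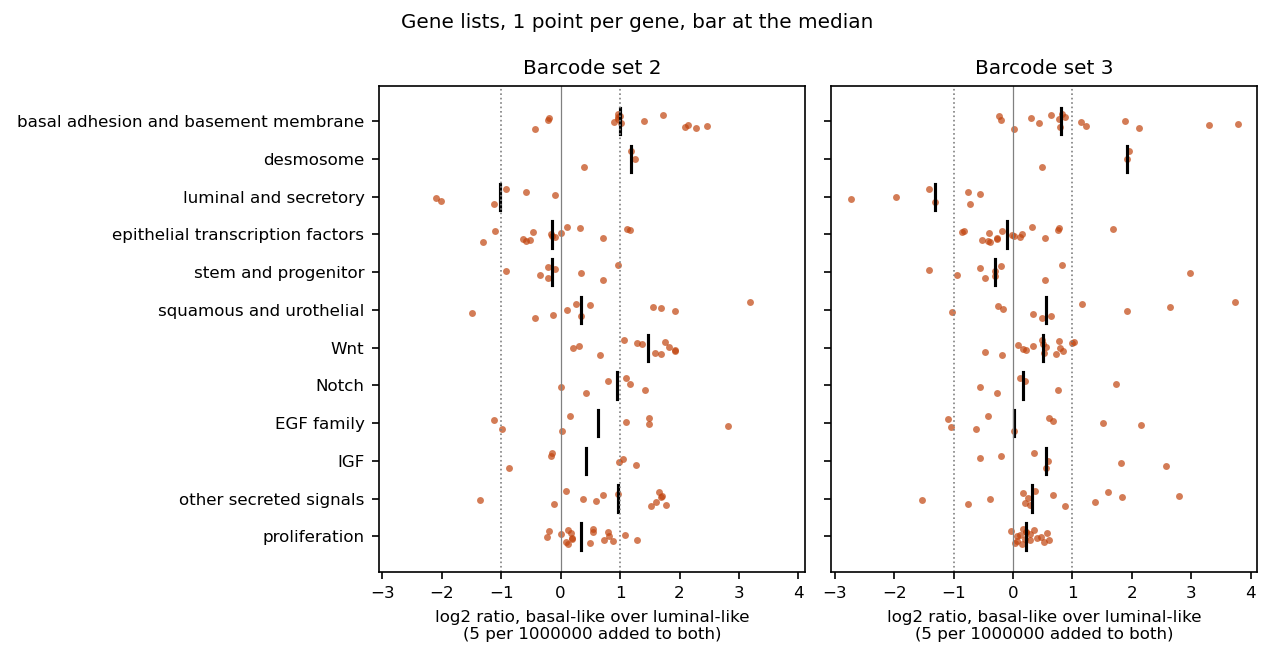
Log2 ratio of basal-like over luminal-like rates (5 per 1000000 added to both) for genes of named lists in barcode sets 2 and 3, with 1 point per gene, black bars at list medians and dotted lines at 2-fold. The median of the adhesion list is 1.00 and 0.81 and that of the luminal and secretory list -1.02 and -1.31.

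Signalling genes were taken by pathway, ligands first. Of 2 Hedgehog genes that could be compared, *Shh*, the secreted ligand of the pathway (chr5:28456840-28467101), was at 94.1 CPM (86.3 to 102), 35.8 (31.0 to 41.2) and 20.5 (17.8 to 23.6) in basal-like cells of the 3 sets. In luminal-like cells it was at 41.0, 7.26 and 2.54 CPM, and in collagen-type cells at 1.96, 4.91 and 1.81. *Shh* was detected in 78.9%, 17.8% and 10.3% of basal-like cells and 1.31%, 0.939% and 0.264% of collagen-type cells, which were shallower.

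Of Wnt genes, 9 of 12 compared in set 2 and 1 of 16 in set 3 were at least 2-fold higher, beside 8.38% and 4.26% of all genes. *Wnt4*, a ligand, was at 662, 127 and 66.3 CPM in basal-like cells. Its ratio over luminal-like cells was 1.13 (0.67 to 1.63) in set 2 and 0.53 (0.30 to 0.77) in set 3, while in set 1 it was -0.64 (-0.78 to -0.50). *Wnt10a*, a ligand of skin and other ectodermal epithelia, was at 28.1, 4.57 and 1.33 CPM and at no more than 0.982 CPM in collagen-type cells. *Ccnd1*, which encodes cyclin D1 and is among the known Wnt targets (chr7:144929931-144939831), was at 25.2 CPM (21.2 to 29.6), 589.7 (569.6 to 610.4) and 257 (247 to 267). Its ratio was 1.95 (1.67 to 2.25) and 0.86 (0.73 to 0.99), and in set 1 its sign turned against all other epithelial-condition cells.

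Of Notch genes, 3 of 6 in set 2 and 1 of 6 in set 3 were at least 2-fold higher, beside 8.38% and 4.26% of all genes. *Jag1*, a Notch ligand, was at 39.2, 58.5 and 68.1 CPM against 21.6, 23.2 and 17.1 in luminal-like cells, and at 65.1, 83.6 and 91.5 in collagen-type cells. Among EGF family genes, 4 of 8 in set 2 were higher and 1 lower, beside 8.38% and 3.92% of all genes. In set 3, 2 of 9 were higher and 2 lower, beside 4.26% and 2.75%. *Areg*, which encodes the EGFR ligand amphiregulin (chr5:91139599-91148432), was at 1279.6 CPM in set 1, 267 in set 2 and 203 in set 3. Relative to luminal-like cells the log2 ratio of *Areg* was 0.83 (0.67 to 0.99) in set 1, where it rested on 6 luminal-like cells, 0.16 (-0.07 to 0.40) in set 2 and -0.43 (-0.53 to -0.32) in set 3. *Epgn*, the ligand epigen, was at 33.6 and 27.9 CPM against 8.72 and 6.46.

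The receptor *Fgfr2*, which takes FGF ligands from the mesenchyme, was at 58.2, 72.9 and 108 CPM, with ratios of 0.60 (0.09 to 1.16) and 0.85 (0.66 to 1.06). Of BMP and TGF-beta genes, 4 of 11 in set 2 were at least 2-fold higher and none lower, beside 8.38% and 3.92% of all genes. In set 3, 5 of 12 were higher and 1 lower, beside 4.26% and 2.75%. *Bmp7*, a BMP ligand of epithelial buds, had ratios of 0.12 (-0.68 to 1.03) and 0.12 (-0.20 to 0.45), and for it no difference from luminal-like cells was detectable at this depth. *Igfbp5*, an IGF-binding protein, was at 399, 59.6 and 180.1 CPM against 159.7, 21.8 and 26.1. *Igfbp2* was at 51.2, 16.4 and 12.7 CPM, and in set 3 no UMI was found in 379 luminal-like cells, so that the log2 ratio was 4.20 (2.62 to 6.50) with that sum set to the floor of 3 UMIs. *Pdgfa*, the ligand of the PDGF alpha receptor of stroma, was at 113, 120.0 and 124 CPM against 25.9, 34.9 and 37.8 and so was nearly level across the sets. In set 2, 6 of 13 other secreted signals were at least 2-fold higher and 1 lower, beside 8.38% and 3.92% of all genes, and in set 3, 4 of 14 were higher and 1 lower, beside 4.26% and 2.75%. Of 18 proliferation genes compared in each of sets 2 and 3, 2 and none were at least 2-fold higher, beside 8.38% and 4.26% of all genes, and none were lower.

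Genes of cornified and urothelial cell layers differed between the barcode sets, in basal-like and in luminal-like cells. Their summed rate was 8726, 1665 and 2171 CPM in basal-like cells of sets 1, 2 and 3 and 10772, 1273 and 1731 CPM in luminal-like cells. In basal-like cells all 12 genes of this list with at least 30 UMIs in a set had their highest rate in set 1, 9 of them at least 2-fold above both other sets. Over all 5935 genes counted in the same way, 3132 were highest in set 1 and 564 at least 2-fold above both others. *Krtdap*, a keratinocyte differentiation-associated protein (chr7:30787905-30791089), was at 121 CPM (112 to 130.0) in set 1, 9.68 (7.25 to 12.7) in set 2 and 1.95 (1.17 to 3.04) in set 3. *Ivl*, the cornified envelope precursor involucrin (chr3:92570899-92573790), was at 191, 11.1 and 34.8 CPM. *Sprr1a*, a small proline-rich envelope precursor (chr3:92483954-92485881), was at 4682, 537 and 805 CPM.

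*Upk1a*, a uroplakin of urothelial plaques (chr7:30603092-30612734), was at 723, 11.7 and 32.7 CPM in basal-like cells and higher in luminal-like cells, at 1185, 42.1 and 71.3. *Aqp3*, a water and glycerol channel of basal keratinocytes and urothelium (chr4:41092724-41098183), was at 497 CPM (479 to 515), 107 (98.6 to 116) and 219 (210.1 to 229). Unlike *Upk1a* it was higher than in luminal-like cells, with ratios of 3.88 (2.65 to 5.51) and 4.22 (3.82 to 4.65). At an equal 1500 UMIs per cell, *Upk1a* was found in 29.4%, 1.46% and 1.87% of members and *Krtdap* in 19.3%, 1.46% and 0.386%. In collagen-type cells thinned alike, of which 520 of 535, 1792 of 3619 and 2284 of 4550 were deep enough to enter, *Upk1a* was found in 0.769%, 0.670% and 0.0876% and *Krtdap* in 0.577%, 0.335% and 0.350%, so in set 3 the *Krtdap* share of members lay at that background.

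All 12 counted genes of this list had their highest rate in basal-like cells of set 1. The promoters of *Krtdap*, *Ivl* and *Sprr1a* are shown from among the list genes that hold the motif given below. Its presence in those shown is therefore by choice. Within set 1 *Krtdap* parted from *Ivl* and *Sprr1a* by sub-cluster (described last). In the group of 20 cells *Ivl* and *Sprr1a* were highest, at 664 and 8634 CPM. *Krtdap* was lowest there, at 8.21 CPM against 98.5 and 203 in the other groups. Each promoter is 250 bases before to 50 after the start in RefSeq, build GRCm38.p6, 5′ to 3′ on the gene's strand. Capitals mark TGAGTCA, the core of the AP-1-type element, or its reverse complement TGACTCA, which was searched on both strands. The motif was chosen after the lists and values were seen. It lies in 5 of 12 list genes with a window (41.7%), against 1607 of all 27025 genes with a window (5.95%), and a match is a description and not a bound site.

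Krtdap, chr7:30787655-30787954, plus strand: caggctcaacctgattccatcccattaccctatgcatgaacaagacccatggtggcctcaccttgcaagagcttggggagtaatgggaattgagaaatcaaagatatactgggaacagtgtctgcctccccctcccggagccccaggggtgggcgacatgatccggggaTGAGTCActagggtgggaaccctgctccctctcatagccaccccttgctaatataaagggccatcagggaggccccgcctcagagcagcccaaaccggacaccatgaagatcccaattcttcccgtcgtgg

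Ivl, chr3:92573686-92573985, minus strand: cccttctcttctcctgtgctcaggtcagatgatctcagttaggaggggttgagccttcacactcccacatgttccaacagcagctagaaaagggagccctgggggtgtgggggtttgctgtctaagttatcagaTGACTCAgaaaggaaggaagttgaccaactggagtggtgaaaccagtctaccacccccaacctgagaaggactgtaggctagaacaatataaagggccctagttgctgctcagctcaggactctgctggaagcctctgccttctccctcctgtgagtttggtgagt

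Sprr1a, chr3:92485832-92486131, minus strand: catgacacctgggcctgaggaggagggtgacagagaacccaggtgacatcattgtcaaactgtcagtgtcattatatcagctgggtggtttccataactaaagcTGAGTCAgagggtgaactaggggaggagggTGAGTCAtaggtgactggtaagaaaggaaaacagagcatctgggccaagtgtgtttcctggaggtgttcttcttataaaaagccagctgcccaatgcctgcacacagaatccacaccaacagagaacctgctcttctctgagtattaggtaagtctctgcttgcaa

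*Sprr1a* held 2 matches, and the other list genes with a match were *Dmkn* and *Sbsn*.

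The genes whose rate in basal-like cells of 1 set was highest relative to the other sets were *Asprv1*, *Upk3bl*, *Clca1*, *Ndufa4l2* and *Klk13* in set 1. *Asprv1*, a skin aspartic protease (chr6:86628174-86629710), was at 591, 2.01 and 0.615 CPM. Luminal-like cells of set 1 stood at 675 CPM of *Asprv1* and had more *Clca1*, at 1204 CPM against 176 in basal-like cells. In set 2 they were *Col9a3*, *Penk*, *Hmga2*, *Des* and *Lhfp*, of which *Hmga2*, a chromatin protein of embryonic and growing tissue, was at 14.9, 77.1 and 8.82 CPM. In set 3 they were *Prr9*, *Defb1*, *Apoe*, *Isg15* and *Trp53inp1*. *Prr9*, a small proline-rich protein (chr3:92122204-92123947), was at 3.5, 59.6 and 490.1 CPM and *Defb1*, an epithelial antimicrobial beta-defensin, at 4.37, 17.7 and 134. These choices are descriptions of rank, and set, depth and library cannot be told apart.

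**Figure D4:**
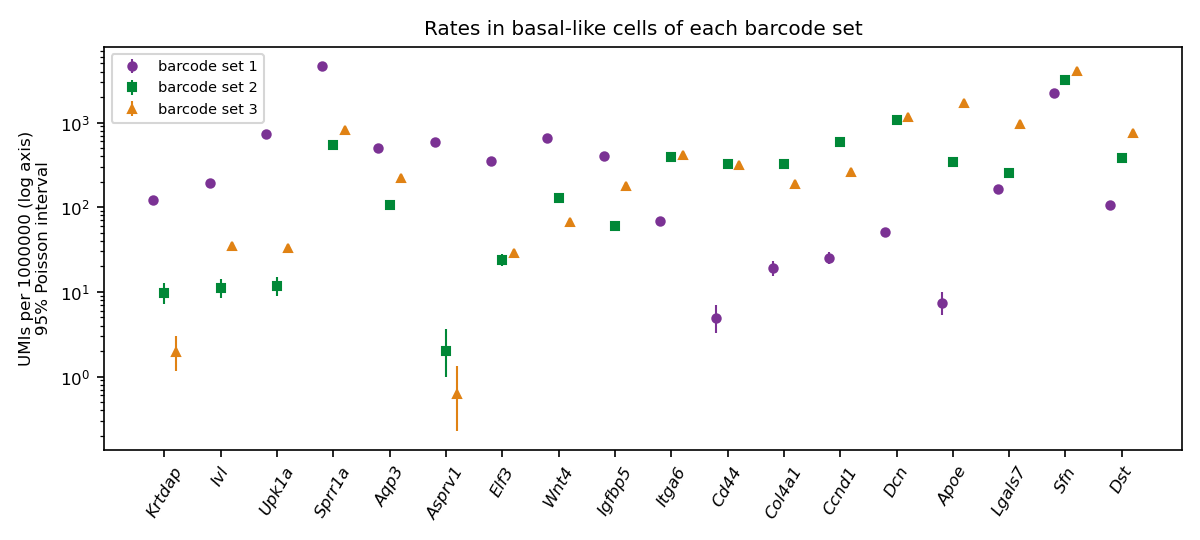
Rate in UMIs per 1000000 (log axis) of named genes in basal-like cells of barcode sets 1, 2 and 3, with exact 95% Poisson intervals, which are hidden by the points where narrow. *Krtdap*, *Ivl*, *Upk1a* and *Asprv1* lie highest in set 1, while *Cd44*, *Ccnd1*, *Dcn* and *Apoe* lie lowest there.

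*Dcn*, the small leucine-rich proteoglycan decorin of connective tissue (chr10:97479500-97518163), was at 51.2 CPM (45.5 to 57.4), 1083 (1056 to 1111) and 1154 (1133 to 1175), which was 1.84%, 42.2% and 29.0% of the collagen-type rate. For *Lum*, another proteoglycan of the same cells, the basal-like rate was 0.236%, 6.0% and 1.28% of theirs. At 1500 UMIs per cell *Dcn* was found in 6.42%, 77.2% and 70.5% of members and in 66.9%, 78.1% and 78.7% of collagen-type cells. It was also found, unthinned, in 59.2% and 45.4% of the deeper luminal-like cells of sets 2 and 3, at 209 and 112 CPM. *Apoe*, which encodes apolipoprotein E (chr7:19696244-19701310), was at 7.34, 346 and 1693 CPM, or 1.90%, 80.6% and 127% of the collagen-type rate. Thinned alike, *Apoe* was found in 0 of 109, 39.9% and 77.1% of members and in 17.7%, 32.4% and 49.6% of collagen-type cells.

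Markers of other cell types were summed beside these values. All 8 stroma markers had a row, and their sum in basal-like cells was 131, 1335 and 1245 CPM, which was 1.18%, 14.3% and 12.5% of the collagen-type sum. That sum included *Dcn* and also *Col1a2* and *Col3a1*, whose values picked both the members and the collagen-type cells. These stroma percentages are therefore in part set by the rule. The 4 smooth muscle markers with a row summed to 52.1, 1471 and 711 CPM, or 4.27%, 13.3% and 7.30% of the collagen-type sum. All 4 were at least 2-fold higher in basal-like than in luminal-like cells of sets 2 and 3, beside 8.38% and 4.26% of all genes. Leukocyte markers summed to 1.22, 25.9 and 62.5 CPM over 9 genes, with 4 and 1 of them at 0 in sets 1 and 2, and endothelial markers to 4.37, 56.1 and 53.7 CPM over 6 genes, with 2 at 0 in set 1. The part of other cells' RNA in any of the ratios above was not tested. A UMI of the muscle genes *Actg2*, *Des* or *Myl9* was present in 15.6%, 38.1% and 18% of members, and without those cells the members made up 9.74% of set 2 and 15.8% of set 3. Without them in either class the log2 ratios (5 CPM added) of *Itga6* were 1.10 and 0.84, those of *Shh* 1.70 and 1.85, and those of *Dcn* 2.50 and 3.33. In set 1, whose value ranked *Dcn* among the 10 highest, its ratio was 2.04 with and 1.19 without them.

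The basal-like cells of each set were then split into sub-clusters, which are given by their leading genes and not named as types. Set 1 split into 47, 20 and 42 cells. The first was led by *Mgp*, *Ube2c*, *Ctgf*, *Ptn* and *Ccnd1*, with *Shh* in 83.0% of cells, *Cdk1* in 48.9%, *Tspan1* in 70.2% and *Mki67*, a proliferation marker, in 27.7%. The second was led by *Fabp4*, *Sptssb*, *Ctse* and *Ivl*, with *Sptssb* in 85.0% of its cells and in none of the other 2 sub-clusters, and *Upk1a* at 1963 CPM. The third was led by *Calca*, *Nupr1*, *Asprv1*, *Klk10* and *Clca1*, with *Asprv1* in 100% of cells and *Clca1* in 64.3%.

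Set 2 split into 278, 84, 283, 97 and 100 cells. The 84 cells were led by *Cd52*, *Sprr2f* and *Wfdc15b*, of which *Cd52* was found in 2.38% and *Wfdc15b* in 8.33% of them, followed by cell cycle genes, with *Cdk1* in 56.0% and *Mki67* in 47.6%, with a median of 8075 UMIs. The 97 cells, led by *Tcaf2*, *Arl14*, *Defb1* and *Ugt2b34*, had *Cldn3* in 83.5% and *Tspan1* in 84.5%, although both are luminal genes of the rule, and the highest median depth of the set at 11855 UMIs. The 100 cells, led by *Actg2*, *Myl9* and *Des*, had *Actg2* in 95% and *Des* in 94.0%, and *Itga6* in 86.0%. The 278 cells were led by *Rgs5*, *Fabp4*, *Stmn2* and *Selp*, each found in 1.08% to 6.12% of them, and the 283 cells by *Wif1*, *Nosip* and *Shh*, the last in 21.2%. *Dcn* was found in 89.7% to 98.0% of cells in every sub-cluster of set 2.

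Set 3 split into 61, 274, 282, 280, 293, 260, 130 and 53 cells. Endothelial and urothelial genes were both found among the 61 cells, with *Emcn* in 50.8%, *Ivl* in 23.0% and *Sptssb* in 26.2%. Whether the same cells carried both kinds was not tested. The 274 cells were led by *Fmod* and *Apoe*, the latter in 99.6%. *Hbb-bs* and *Cd52* led the 282 cells, although *Hbb-bs* was found in only 1.42% and *Cd52* in 7.80% of them. The 280 cells, of the lowest median depth in set 3 at 2203.5 UMIs, were led by *Ifi202b*, *Il1r2*, *Gja1*, *Rgs10* and *Dmkn*, and had *Aqp3* in 52.5%. In the 293 cells *Prr9* was at 1457 CPM, against 296 to 465 CPM in the other sub-clusters of the set.

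The 260 cells of set 3 were led by *Ugt2b34* and *Mme*, with *Cldn3* in 77.3%, *Tspan1* in 84.6% and a median of 10301 UMIs, the deepest of the set. *Shh* was in 3.08% of them, and *Dcn* was at 283 CPM, the lowest level in that set. Muscle genes led the 130 cells, with *Actg2* in 58.5% and *Des* in 63.8%. Cell cycle genes led the 53 cells, with *Cdk1* in 77.4% and *Mki67* in 62.3%. Sub-clusters led by muscle genes thus appeared in both set 2 and set 3. Cell cycle genes were among the 10 leading genes of the 84 cells of set 2 and the 53 cells of set 3, and *Ube2c* among those of the 47 cells of set 1. *Cldn3* was not particular to those sets, since in set 1 it was found in 90.5% of the 42 cells, at 531 CPM, against 316 CPM in the 97 cells of set 2 and 291 CPM in the 260 cells of set 3.

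**Figure D5:**
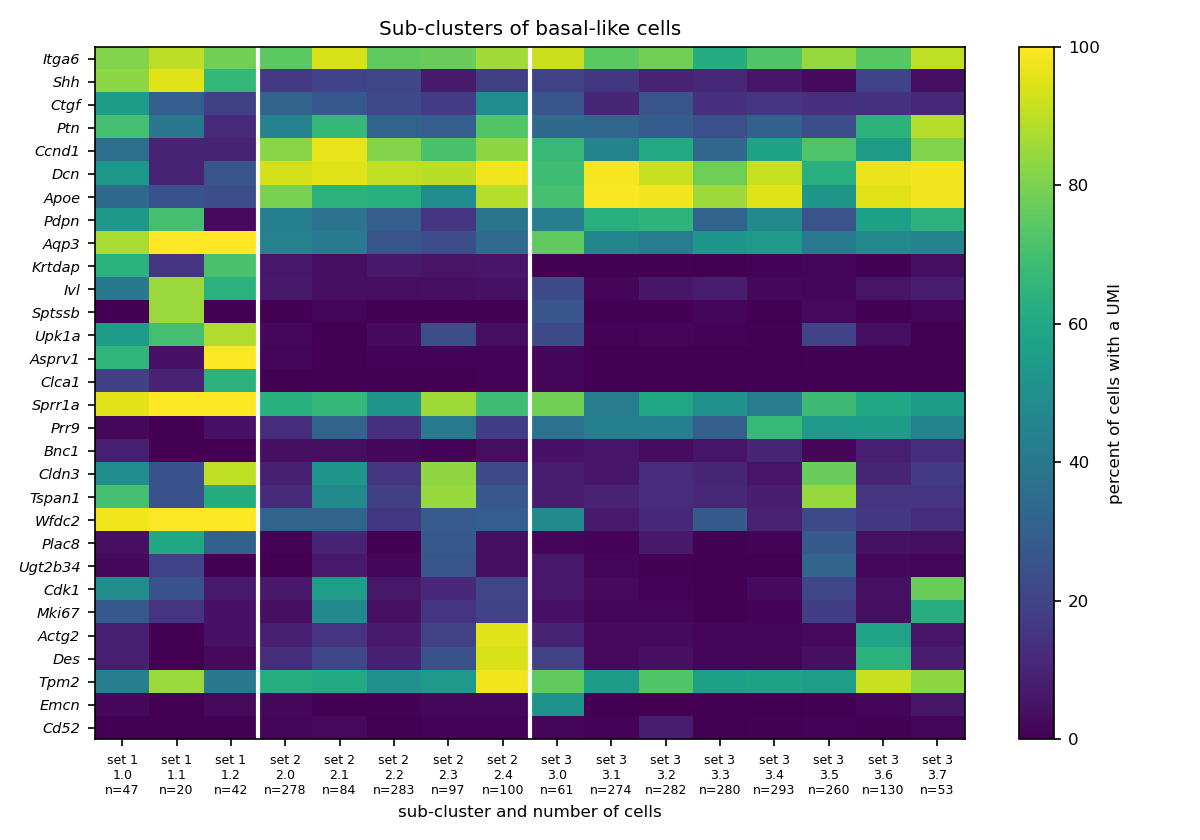
Percent of cells with a UMI of each named gene (colour scale, 0 to 100) in the sub-clusters of basal-like cells, with the number of cells under each column and the barcode sets parted by white lines. *Itga6* is found in 62.1% to 94.0% of cells in every sub-cluster, while *Actg2* and *Des* stand out in 1 sub-cluster of set 2 and 1 of set 3. Shares are not thinned, and set 1 is the deepest.

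The *Sprr2* genes that led several sub-clusters are near-identical copies between which reads may be split, so their levels are uncertain and are not given.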

How the data were processed

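Cells from 3 mouse tissues were loaded on the 10x Chromium platform, for which labels and methods differ in kit version. The authors counted UMIs with Cell Ranger 3.1.0 on mm10 with added *mGFP* and *hARtg* sequences, describe filtering of empty droplets, multiplets and high-mitochondrial cells, and used Seurat 3.2.1 (R 3.6.3). The deposited values are on a natural log scale, ln of 1 plus 10000 times UMIs over the cell total. Whole UMIs and totals came back for 100% of cells (tolerance 0.05, largest distance 9.4e-07), whereas the design had foreseen either raw counts or log values. Of 9784 rows, 1 with 7208 empty cells and 2 sharing a name were left out, which kept 9781 rows over part of the genome.

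Summed UMIs per set gave CPM with exact Poisson intervals. Ratios have exact binomial-split intervals, in which a sum under 3 UMIs was set to 3. Shares have exact Clopper-Pearson intervals, and all intervals cover counting error only. Classes followed the rule on deposited values, and luminal-like cells its mirror. Thinned shares used 1500 UMIs per cell, which left out 0, 18 and 79 members and kept 520, 1792 and 2284 collagen-type cells. Sub-clusters came from Pearson residuals (theta 100) of 1000 genes, 15 components and 15 neighbours at resolution 0.5, in scanpy 1.11.5. NumPy 2.4.6, SciPy 1.17.1 and Python 3.11.15 were used, and the recovery of UMIs and the fold rule were tested on simulated data. Genes named were those of fixed lists with at least 10 UMIs in members of a set, 10 per direction by ratio across sets, 5 per set by relative rate, and leading genes of sub-clusters, some of which were chosen after their values were seen. Members, lists and this rule were chosen with earlier results of these data known. Positions and promoters are from RefSeq for GRCm38.p6, and the genome sequence of another build was not used.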

Additional observations from a re-analysis of the deposited data

Results flagged for a closer look

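The row named *EGFP* lies outside the comparisons above and held 186 UMIs in the basal-like cells of set 1, more than the limit of 3 UMIs set by a count of 0. This is 32.5 CPM (28.0 to 37.5), found in 63 of 109 cells (57.8%) at a median of 48873 UMIs. Luminal-like cells of set 1 held 19 UMIs (41.0 CPM) and collagen-type cells 967 CPM, in 56.4% of cells at a median of 17242 UMIs. In sets 2 and 3 no *EGFP* UMI was found in 842 and 1633 basal-like cells, which allows shares of cells with a UMI of up to 0.356% and 0.184% and does not limit the share that expresses the gene. The study's reporter is named *mGFP*, and whether this row is that reporter is not stated in the sources used here. The part of other cells' RNA in the 186 UMIs was not tested.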

How the results depend on the processing

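No paired analysis was possible because each tissue has 1 library. No library could be left out for the same reason. Shares of basal-like cells in sets 2 and 3 moved to 20.1% and 22.2% with at least 2 markers, 19.5% and 23.6% without the epithelial condition, 17.9% and 22.3% among cells of at least 1000 UMIs, and 13.4% and 17.7% without cells over the 95th percentile of UMIs. With at least 4 markers the shares of sets 1, 2 and 3 were 9.01%, 9.12% and 13.0%. Among cells of at least 1500 UMIs, thinned to 1500, they were 1.09%, 9.95% and 17.6%. With muscle-gene cells left out they were 9.74% and 15.8% in sets 2 and 3, an alternative chosen after seeing the data. Counts of genes 2-fold higher moved to 856, 644 and 501 with 1 CPM added, and lower ones to 212, 319 and 360, as fewer added CPM widen ratios of rare genes. Against all other epithelial-condition cells 100, 21 and 166 genes were higher and 117, 76 and 122 lower. With at least 2 markers the higher count of set 1 was 212. With a mean of per-cell rates 519 and 294 genes were higher and 299 and 355 lower in sets 2 and 3, and without cells over the 95th percentile 342 were higher and 332 lower in set 3. The cause was not tested for these. In set 1, at least 4 markers and the 95th percentile left 1 and 2 luminal-like cells, and no ratio was computed. Of 1950 values for the genes named in the text, 1352 stayed within their counting interval, 593 left it, and 5 of genes at least 2-fold apart changed sign, all in set 1. This set of genes was fixed after the text was drafted. Over the 286 genes of the wider naming rule with a value, 22 of 5500 values changed sign in this way, 15 in set 1, 4 in set 2 and 3 in set 3. Sign changes of smaller ratios were not counted. These include the values without muscle-gene cells and among cells of at least 4000 UMIs, also chosen after seeing the data. The 5 were *Ccnd1* at -0.79 with at least 2 markers, and against all other epithelial-condition cells *Ccnd1* at -1.54, *Col18a1* at -0.48, *Arhgdib* at -0.20 and *Ctgf* at -0.19. Set 1 is limited by its 6 luminal-like cells, and sets 2 and 3 by depth, with medians of 4849 and 3818 UMIs per member.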
